A study of Mus musculus with 15 samples.

Results

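H3K27ac, an acetylated histone mark of active promoters and enhancers, was examined at 10 genes of the neuromuscular junction in a mouse tumor. The genes were the 5 subunits of the muscle acetylcholine receptor (Chrna1, Chrnb1, Chrnd, Chrne and Chrng) and 5 genes that organize the junction (Agrn, Lrp4, Musk, Dok7 and Rapsn). They were chosen by name, out of 21000 protein-coding genes with curated RefSeq transcripts. Peaks of the mark were taken where they overlapped the RefSeq span of a gene or the 20 kb on either side. This gave 69 of the 122375 peaks in the list. Each peak was assigned to a promoter (within 2 kb of a start site of the gene), otherwise to the gene body, otherwise to the flank.

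The study compared fusion-positive rhabdomyosarcoma, a soft tissue tumor with muscle features that carries the PAX3-FOXO1 fusion (P3F), when it arose from myogenic or from endothelial cells of the mouse. The series held 15 CUT&RUN libraries, 6 with an H3K27ac antibody and 3 with IgG from MCP tumors, and 3 of each from TCP tumors. The list used here was taken as that of 1 library, MCP H3K27ac replicate 5, because its peak names begin with the number in the description of that library. This was the sole basis of the assignment. No value below has a replicate, and no comparison between tumor types was made. CUT&RUN uses a nuclease tethered to the antibody to release the DNA beside the mark, and IgG gives the background. MCP tumors carry Myf6-Cre, which acts in the myogenic lineage, with Cdkn2a(Flox/Flox), 2 copies of the conditional P3F allele at Pax3 (Pax(3P3F/P3F) in the labels) and the R26-tdTom reporter, and no further treatment was given in the labels. The IgG library that served as background came from the same MCP model and so shared these alleles. Tumors were dissociated and live cells were sorted. The labels give neither the age of the animals nor how many tumors entered the library.

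At the junction, the motor nerve releases agrin, which binds LRP4 on the muscle fiber and activates the receptor kinase MuSK. DOK7 is the cytoplasmic activator of MuSK, and rapsyn is the scaffold that holds acetylcholine receptors in clusters beneath the nerve. The receptor is a channel of alpha, beta and delta subunits with gamma in fetal muscle and epsilon in adult muscle. In muscle, its subunit genes are known to be driven from E-boxes, which bind MYOD1 and related factors, and in nuclei beneath the synapse from the N-box, which binds the ETS factor GABP.

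A peak is described here by its fold enrichment, the ratio of scaled fragments at its summit to the local IgG background with 1 added to both, and by the number of fragments over its summit. These numbers were recovered from the fold and p columns of the list and carry exact Poisson 95% intervals that cover counting error only. The depth of the library was recovered as 1.13 times that of its IgG library. Over all peaks the median was 13 fragments (quartiles 10 and 17), and 84.2% of the peaks had fewer than 20. At that depth the intervals of most peaks overlap, and an absent peak means that none was called, not that the mark was absent.

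Sequences are given for the promoter peaks of Musk and Agrn, for the strongest peak in Musk, the peak in Dok7, the strongest peaks beside Chrna1 and Chrnd, the upstream Chrne peak nearest to a promoter window, and a Musk intron 1 peak that holds several E-boxes. They were read from GRCm38.p6 (mm10) on the strand of the gene, 5′ to 3′. The Agrn and Dok7 lines show the whole peak and the others the 151 bp around the summit. Capitals mark E-boxes (CANNTG) and the N-box (CCGGAA or its reverse complement).
Musk first promoter peak, chr4:58286264-58286414: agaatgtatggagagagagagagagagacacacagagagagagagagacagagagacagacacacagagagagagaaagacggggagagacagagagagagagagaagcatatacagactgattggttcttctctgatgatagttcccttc
Musk second promoter peak, chr4:58286686-58286836: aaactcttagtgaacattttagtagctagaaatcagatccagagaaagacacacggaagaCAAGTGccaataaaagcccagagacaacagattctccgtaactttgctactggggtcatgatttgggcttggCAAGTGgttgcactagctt
Agrn promoter peak, chr4:156198531-156198701: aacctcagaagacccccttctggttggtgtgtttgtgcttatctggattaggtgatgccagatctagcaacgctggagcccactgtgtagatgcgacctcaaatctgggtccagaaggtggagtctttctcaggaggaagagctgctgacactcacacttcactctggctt
Musk intron 5 peak, chr4:58327015-58327165: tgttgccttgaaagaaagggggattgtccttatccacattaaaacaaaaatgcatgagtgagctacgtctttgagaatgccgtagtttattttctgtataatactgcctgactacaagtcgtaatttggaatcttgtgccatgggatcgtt
Musk intron 1 peak past the promoter, chr4:58288843-58288993: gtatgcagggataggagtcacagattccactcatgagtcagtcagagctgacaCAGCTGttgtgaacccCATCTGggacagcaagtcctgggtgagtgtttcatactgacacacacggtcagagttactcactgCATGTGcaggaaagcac
Dok7 intron 4 peak, chr5:35073880-35074013: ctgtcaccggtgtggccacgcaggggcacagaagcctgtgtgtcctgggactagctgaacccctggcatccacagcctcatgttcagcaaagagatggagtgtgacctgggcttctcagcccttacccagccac
Chrnd upstream peak, chr1:87180442-87180592: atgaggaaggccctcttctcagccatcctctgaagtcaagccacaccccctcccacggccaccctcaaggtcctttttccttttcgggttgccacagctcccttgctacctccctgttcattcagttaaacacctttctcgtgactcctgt
Chrna1 upstream peak, chr2:73592533-73592683: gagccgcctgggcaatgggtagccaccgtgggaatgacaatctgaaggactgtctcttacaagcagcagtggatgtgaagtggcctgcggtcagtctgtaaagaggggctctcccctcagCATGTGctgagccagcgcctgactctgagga
Chrne upstream peak, chr11:70621864-70622014: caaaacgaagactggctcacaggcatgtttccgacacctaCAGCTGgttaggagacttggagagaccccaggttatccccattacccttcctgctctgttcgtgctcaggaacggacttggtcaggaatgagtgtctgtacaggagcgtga
The window of the first Musk promoter peak consists largely of a GA repeat, and 74.2% of it is masked as repeat in the assembly. It holds neither motif. In the window of the second, 9.93% is masked, and it holds 2 E-boxes. The Musk intron 1 window further in holds 3 E-boxes, while the windows of Agrn, Dok7, Chrnd and Musk intron 5 hold none. The Chrna1 and Chrne windows hold 1 each.

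A promoter peak was called at 2 of the 10 genes, Agrn with 1 and Musk with 2 (20.0%, interval 5.67 to 51.0% by the Wilson method at 95%). Over all protein-coding genes 45.6% had one. Wilson intervals treat genes or peaks as independent draws, which genes chosen by name and peaks in clusters are not. They are given here as description. No promoter peak was called at any of the 5 receptor subunit genes, and 2 of the 5 organizer genes had one. With GENCODE start sites in place of the curated RefSeq ones the count was 4 (Chrne, Agrn, Musk and Dok7, with 46.7% of all genes), 1 of them a receptor subunit gene, and among the strongest 25% of the peaks it was 0 (with 29.3%). With GENCODE starts the peaks in Chrne and Dok7 count as promoter peaks. Those in Chrne lie 3.96 and 4.36 kb from its RefSeq start and overlap the promoter of the neighbor 4930544D05Rik. A gene body peak was called in 3 of the 10 genes (Chrne, Musk and Dok7, interval 10.8 to 60.3%), close to the 32.2% of all genes. With GENCODE starts only 1 of the 10, Musk, had a body peak, with 29.5% of all genes. All 10 genes had at least 1 peak in the gene or the flanks, against 68.7% of all genes. In 5 of the 10 (Chrna1, Chrnb1, Chrnd, Lrp4 and Rapsn) the gene and the 2 kb on either side held no peak, against 45.1% of all genes.

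**Figure D1:**
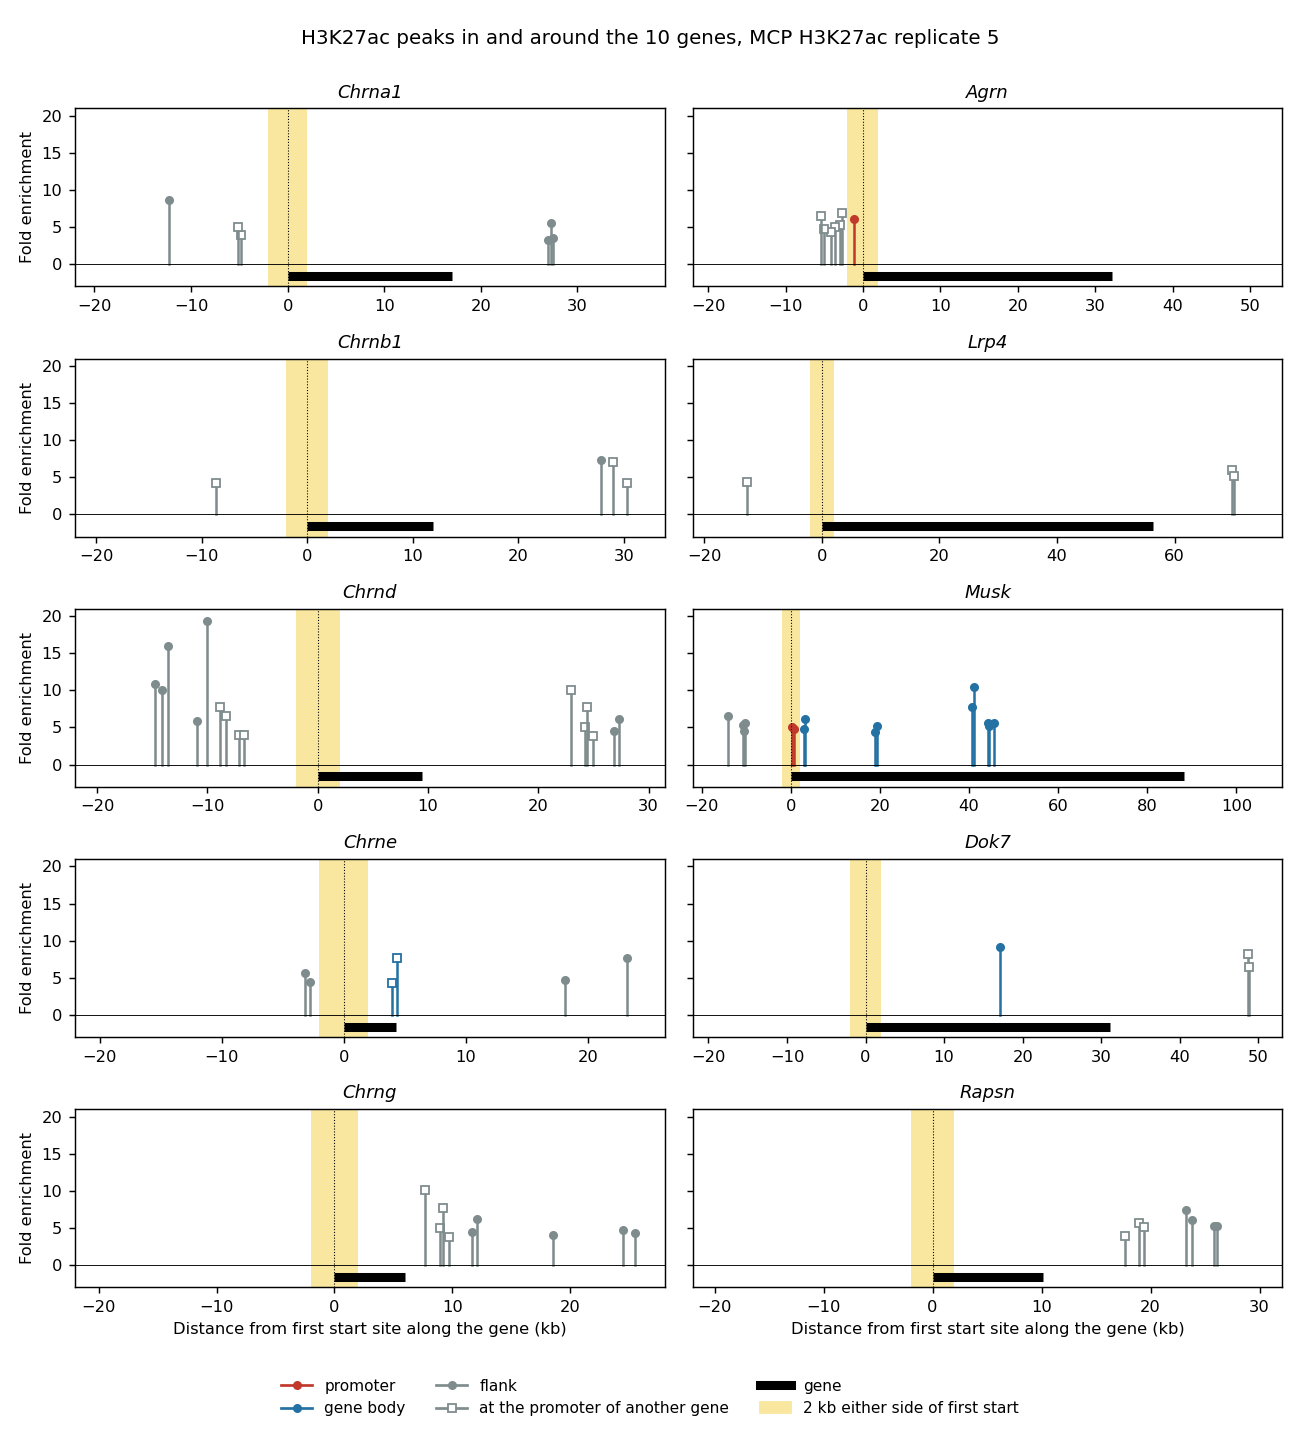
H3K27ac peaks at the 10 genes in 1 MCP library. Each stick is a peak at its summit, with fold enrichment on the y axis and distance from the first start site in kb, along the direction of transcription, on the x axis (the kb range differs between panels). Promoter peaks appear at Agrn and Musk, body peaks run through the first 50 kb of Musk, and open squares mark the 29 peaks that stand at the promoter of another gene.

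The 69 peaks were mostly outside the genes. The promoter class held 3 of them (4.35%, interval 1.49 to 12.0%), the gene body 12 and the flanks 54. A promoter of another gene was overlapped by 29 peaks, 27 of them at protein-coding genes, and 37 peaks overlapped no promoter. The summits of 7 lay in exons, 33 in introns and 29 between genes. The nearest start site belonged to one of the 10 genes for 19 of the 69, and 15 of those belonged to Musk. The median fold of the 69 peaks was 5.35 (quartiles 4.46 and 6.94, range 3.21 to 19.4), next to 5.22 (4.36 and 6.51) over all peaks. Their median width was 179 bp against 163 bp, and their median fragment number was 13 in both sets. Median fold was 5.05 for the 3 promoter peaks, 5.65 for the gene body peaks and 5.28 for the flank peaks.

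**Figure D2:**
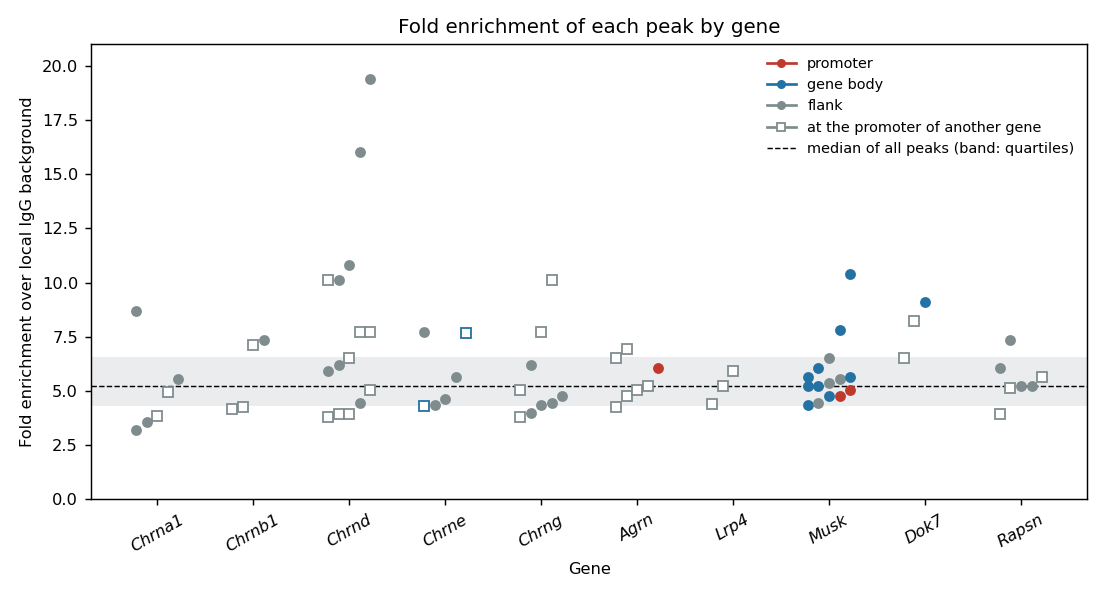
Fold enrichment (y axis) of every peak assigned to each gene (x axis), in 1 library. The dashed line is the median of all 122375 peaks (5.22) and the band their quartiles (4.36 to 6.51). The peaks above a fold of 15 both belong to the Chrnd flank (16.0 and 19.4), and the 6 peaks shared by Chrnd and Chrng appear under both genes.

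Chrna1 encodes the alpha subunit, which carries the acetylcholine binding site. The gene (chr2:73563281-73580338, minus strand, 17.1 kb) had 6 peaks, all in the flanks. The strongest, chr2:73592199-73593151, lay 12.3 kb upstream between genes and was 953 bp wide, with a fold of 8.67 and 19 fragments (interval 11.4 to 29.7). A pair of peaks 4.79 and 5.16 kb upstream, with folds of 3.87 and 4.94, stood at the promoter of Chrna1os, a noncoding gene upstream of Chrna1. The other 3 lay past the 3′ end, up to 27.5 kb from the start, with folds of 3.21 to 5.57. The start site thus sat in a stretch of 31.6 kb without a peak, and 60.5% of all genes sat in a stretch at least as long.

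Chrnb1 encodes the beta subunit. The gene (chr11:69784036-69795937, minus strand, 11.9 kb) held no peak, and all 4 flank peaks had a neighbor as the nearest start. Downstream, 3 peaks lay at the start or in an intron of Zbtb4, a zinc finger gene, with folds of 4.17, 7.11 and 7.37. Upstream, a peak with a fold of 4.28 and 12 fragments overlapped the promoters of Tmem102 and G630025P09Rik, 8.65 kb from the Chrnb1 start. Chrnb1 is the receptor subunit gene with the most CpG around its start site, 5.09 per 100 bp, in a decile where 63.8% of genes had a promoter peak.

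Chrnd and Chrng, for the delta subunit and the fetal gamma subunit, lie side by side on chromosome 1 (87190597 to 87200070 and 87205811 to 87211835, both on the plus strand). Both sat in the same peak-free stretch of 29.0 kb, yet the flank of Chrnd held the strongest peaks of the set. The peak 10.1 kb upstream of Chrnd, chr1:87180071-87181100, had a fold of 19.4 and 45 fragments (interval 32.8 to 60.2), at percentile 99.9 of all peaks by fold. A peak 13.6 kb upstream had a fold of 16.0 and 38 fragments (interval 26.9 to 52.2), at percentile 99.7. Both were intergenic, and the start site nearest to each was that of Prss56, a serine protease gene, at 2.80 and 6.29 kb. Their Poisson intervals lay above the median of 13 fragments. Both peaks were picked as the strongest of the set, so this adds no further support.

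The upstream Chrnd peaks formed a run. Stitching peaks closer than 12.5 kb, after leaving out those within 1 kb of a start site, joined 7 peaks over 7.21 kb, and 20.3% of the 20840 stitched clusters held at least as many. The third strongest Chrnd peak, 14.8 kb upstream, had a fold of 10.8 and 24 fragments. Toward Chrnd the folds were lower, at 3.93 for both of the peaks inside Prss56, 7.11 and 6.72 kb from the Chrnd start. Past the 3′ end of Chrng, 6 peaks counted for both genes lay at Eif4e2, which encodes a cap-binding protein, and the strongest of them had a fold of 10.1 and 33 fragments (interval 22.7 to 46.3). That peak stood at the Eif4e2 promoter, 22.9 kb from the Chrnd start and 7.72 kb from the Chrng start. Chrng had 9 peaks in all, every one of them with Eif4e2 as the nearest start.

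Chrne encodes the adult epsilon subunit and is the shortest of the 10 genes (chr11:70614883-70619194, minus strand, 4.31 kb). Both gene body peaks were at its 3′ end, where they also overlapped the promoter of the neighbor 4930544D05Rik. One had a fold of 7.66 and 19 fragments, with its summit just beyond the end of Chrne. The other had a fold of 4.31 and 14 fragments, with its summit in a coding exon. Upstream, peaks 2.75 and 3.14 kb from the start had folds of 4.36 and 5.65 and fell just outside the 2 kb promoter window. They are the peaks nearest to a receptor subunit start, and Chrne was the gene nearest to both. The strongest peak of the locus, with a fold of 7.71 and 18 fragments over 1604 bp, was in an intron of Mink1, a kinase gene, 23.2 kb away.

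Agrn encodes agrin, the signal from the nerve that muscle also makes in other forms. The gene (chr4:156165290-156197488, minus strand, 32.2 kb) had 1 promoter peak, chr4:156198531-156198701, centered 1.10 kb upstream of the start, with a fold of 6.08 and 13 fragments (interval 6.92 to 22.2). The whole peak lies over 1 kb from the start, so a 1 kb window does not hold it. The 6 other peaks, with folds of 4.28 to 6.94, were further upstream at Isg15, an interferon-induced gene, and the noncoding AW011738. No peak was called within the 32.2 kb of Agrn itself, and the peak-free stretch that begins at the promoter peak ran for 67.4 kb.

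Musk, for the receptor kinase that starts receptor clustering, had peaks at its promoter, through its introns and upstream. Its 15 peaks (chr4:58285962-58374303, plus strand, 88.3 kb) comprised 2 at the promoter, 9 in the gene body and 4 upstream. None overlapped the promoter of another gene, and Musk was the nearest start for all 15. Both promoter peaks were in intron 1, at 0.377 kb (fold 5.05, 16 fragments, interval 9.15 to 26.0) and 0.799 kb (fold 4.79, 10 fragments) past the start. Their folds were below the median of all peaks.

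The Musk body peaks lay in introns 1, 5 and 6. In intron 1 a pair stood 2.96 and 3.19 kb from the start, with folds of 4.79 and 6.08. Intron 5 held the strongest, chr4:58327023-58327412, 41.1 kb from the start, with a fold of 10.4 and 23 fragments (interval 14.6 to 34.5), at percentile 96.1. Beside it, 40.7 kb from the start, was a peak with a fold of 7.80 and 17 fragments whose summit window is wholly repeat-masked. Together with 3 peaks in intron 6 (folds of 5.22 to 5.65) these made a cluster of 5 over 5.04 kb, a size that 30.3% of stitched clusters reached. The 4 upstream peaks stood 10.2 to 14.1 kb from the start with folds of 4.46 to 6.51. By length Musk is the longest of the 10 genes, and its 1.17 peaks per 10 kb of gene and flank were at percentile 71.2 of all genes.

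Dok7, Lrp4 and Rapsn, which act with Musk on the muscle side, had no promoter peak. Dok7 (chr5:35056766-35087839, plus strand, 31.1 kb) had a single body peak, chr5:35073880-35074013, in intron 4 and 16.9 kb from the nearer of its 2 start sites. Its fold was 9.10 with 20 fragments (interval 12.2 to 30.9), at percentile 92.8. The flank peaks of Dok7 were both at the start of Lrpap1, a chaperone of lipoprotein receptors, with folds of 8.24 and 6.51.

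Lrp4 (chr2:91457531-91513901, plus strand, 56.4 kb) had the fewest peaks for its size. No peak was called in a stretch of 82.5 kb around its start, and 44.8% of genes sat in one at least as long. Its 3 flank peaks belonged to 1110051M20Rik (fold 4.38, 10 fragments) and Ckap5, a microtubule gene (folds of 5.94 and 5.22). The density of 0.311 peaks per 10 kb was below that of chromosome 2 as a whole, 0.519.

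Rapsn (chr2:91035627-91045729, plus strand, 10.1 kb) had 7 peaks, the nearest 17.7 kb from its start, the longest such distance among the 10 genes. All 7 had Psmc3, a proteasome subunit gene downstream, as the nearest start, with folds of 3.93 to 7.37. The strongest had 16 fragments and lay 23.3 kb from the Rapsn start, in a Psmc3 intron.

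Per unit of sequence the 10 genes were not poor in peaks. Their median was 1.11 peaks per 10 kb of gene and flank, against 0.485 over all genes, and 2 of the 10 (Lrp4 and Dok7) were below that median. The range was 0.311 for Lrp4 to 3.03 for Chrnd. Median gene length was 14.5 kb, against 16.7 kb over all genes. In these windows 15 protein-coding neighbors had a start, and 10 of them had a promoter peak (66.7%, interval 41.7 to 84.8%), against 45.6% of all genes. The 5 neighbors without one were Fgf11, Gm39566, Gp1ba, Perm1 and Hgfac. The part of neighbors in the density was not tested, and no such count is given for the windows of all genes.

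CpG content around the start sites moves with promoter peaks over the whole genome. When all genes were ranked by CpG within 500 bp of the first start, 4.43% of the lowest decile and 73.1% of the highest had a promoter peak. Chrnd, Chrne, Chrna1, Chrng, Rapsn and Musk had starts in deciles 2 to 4, where 9.90 to 27.8% of genes had one, and Musk was the member of this group with a peak. Chrnb1, Dok7, Lrp4 and Agrn were in deciles 6 to 10, where 63.8 to 73.1% did, and of these Agrn had one. Averaged over the 10 genes, the share of their deciles was 37.6%, below the 45.6% of all genes and above the 20.0% observed. With 10 genes, the interval of the observed share includes both values. The part of CpG content in the result was not tested further.

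**Figure D3:**
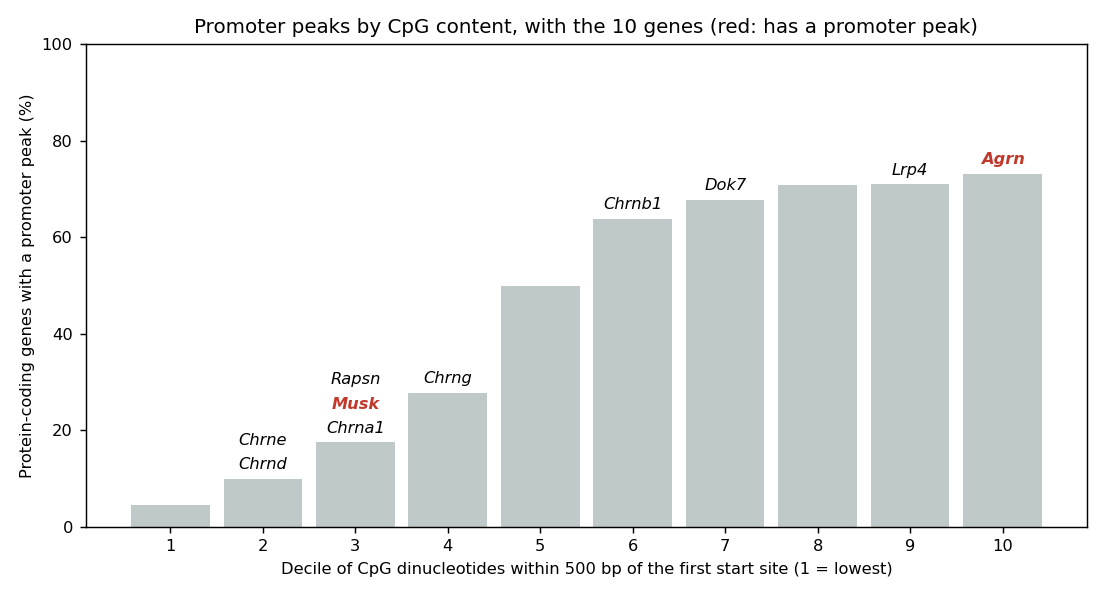
Share of protein-coding genes with a promoter peak (y axis, %) in each decile of CpG content around the first start site (x axis), 2100 genes per bar, 1 library. Names mark the decile of each of the 10 genes, with Agrn and Musk in red as those with a promoter peak. The bars rise from 4.43% to 73.1%, and 6 of the 10 genes stand in deciles 2 to 4.

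Sequence upstream of the start sites was available for 7 of the 10 genes (9 RefSeq start sites of the GRCm38.p6 set). Chrnd, Lrp4 and Rapsn were not matched. The 250 bases before the start are given for Chrna1, Chrne and Chrng, the receptor subunit genes found to hold the E-box CAGCTG there. No peak was called on these windows. The Musk window, not shown, also holds CAGCTG, and no peak was called on it either. Capitals mark E-boxes and the N-box as above.
Chrna1 upstream, chr2:73580339-73580588: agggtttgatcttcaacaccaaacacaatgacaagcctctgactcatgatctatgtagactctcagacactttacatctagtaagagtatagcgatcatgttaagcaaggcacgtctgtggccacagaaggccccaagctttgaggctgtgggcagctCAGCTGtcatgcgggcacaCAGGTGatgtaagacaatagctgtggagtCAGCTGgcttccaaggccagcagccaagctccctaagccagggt
Chrne upstream, chr11:70619195-70619444: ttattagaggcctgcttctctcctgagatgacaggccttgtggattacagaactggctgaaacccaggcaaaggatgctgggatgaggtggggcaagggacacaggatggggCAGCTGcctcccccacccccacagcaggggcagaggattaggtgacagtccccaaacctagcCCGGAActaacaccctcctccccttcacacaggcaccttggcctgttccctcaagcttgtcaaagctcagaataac
Chrng upstream, chr1:87205561-87205810: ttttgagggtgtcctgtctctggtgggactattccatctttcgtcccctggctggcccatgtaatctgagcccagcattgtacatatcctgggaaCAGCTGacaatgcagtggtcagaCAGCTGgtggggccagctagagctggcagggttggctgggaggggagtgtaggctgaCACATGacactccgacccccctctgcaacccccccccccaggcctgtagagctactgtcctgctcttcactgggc
Chrna1 and Chrng each show 3 E-boxes, 2 of them CAGCTG, and Chrne shows 1 CAGCTG and the N-box CCGGAA. All motifs were searched on both strands, and windows with CAGCTG or CAGGTG also count for CANNTG. The form CAGCTG occurred upstream of 4 of the 9 starts (Chrna1, Chrne, Chrng and Musk), against 13.0% of 32817 upstream windows. Any E-box CANNTG occurred in 7 of 9 against 66.2%, CAGGTG in 2 (Chrna1 and Chrnb1) against 17.2% and CCGGAA in 1 against 12.0%. Neither a MEF2 motif (CTA and TAG with 4 bases between) nor a paired homeodomain motif (TAAT and ATTA with 2 bases between) was found in the 9 windows, and 3.20% and 0.384% of all upstream windows held them. These matches describe letters in a short window and do not show that a factor was bound.

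At the peaks themselves, E-boxes were in a smaller share of windows than over all peaks, and the share over all peaks lay inside the interval of each E-box form. In the 151 bp around the summit, 30 of the 69 windows held CANNTG (43.5%, interval 32.4 to 55.2%), against 55.1% of all peaks. CAGCTG was in 4 windows (5.80%, interval 2.28 to 14.0%, against 7.64%), beside Chrnb1, Chrne and Musk, the last with 2, and CAGGTG in 5 (7.25%, interval 3.13 to 15.9%, against 10.1%). CCGGAA was in 2 windows (2.90% against 2.33%), at Eif4e2 and at 1110051M20Rik. The MEF2 and paired homeodomain motifs were in 1 window each (1.45%, against 2.32% and 0.338%). Median GC content was 47.7% against 45.7% of all peaks, and 13.0% of the windows were at least 50% repeat against 11.2%.

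A larger share of the wider set of junction genes had promoter peaks. A list of 46 other genes was drawn up for the postsynaptic side. It is broad, and includes cleft genes such as Lamb2, glycosylation enzymes such as Gmppb and the ligand gene Nrg1. Of the 46, 30 had a promoter peak (65.2%, interval 50.8 to 77.3%), against 45.6% of all genes. A body peak was called in 33 and any peak in 41, against 32.2% and 68.7% of all genes. The median length of the 46 was 48.4 kb, against 14.5 kb for the 10 genes and 16.7 kb for all genes. The interval for promoters meets that of the 10 genes at its edge (50.8 against 51.0%). The strongest promoter peaks were at Lamb2, a laminin of the synaptic cleft (fold 12.7), Utrn, the dystrophin relative of the junction (12.5), Gabpb1, a subunit of GABP (11.7), Gmppb, a glycosylation enzyme whose loss disturbs the junction (11.2), and Plec, a cytoskeletal linker (10.8). Several of the 46 act in many cell types, and 31 had starts in CpG deciles 6 to 10, with a mean share of 57.1% for their deciles. Of the 46 genes, 16 had no promoter peak. Those named here, after their values were seen, are Ache, Colq and Scn4a, for acetylcholinesterase, its collagen tail and the muscle sodium channel. Ache had a body peak with a fold of 5.65 and 10 flank peaks, while no peak was called within 20 kb of Colq or Scn4a. Others without a promoter peak had many body peaks, such as Macf1 with 53 and Sntb1 with 29.

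Subunits of the neuronal acetylcholine receptors, relatives of the muscle subunits, had no peak in any of 11 promoters (interval 0 to 25.9%) or gene bodies. In the flanks, 3 of the 11 had a peak. The shares of all genes were 45.6% for promoters, 32.2% for bodies and 53.8% for flanks. The mean share of the CpG deciles of the 11 neuronal genes was 35.8%. Genes of the presynaptic motor terminal, which belongs to the nerve, had promoter peaks in 3 of 16 (18.8%, interval 6.59 to 43.0%), against 45.6% of all genes. The 3 genes were Vamp2 (fold 10.3), Vamp1 (4.99) and Gap43 (3.58). These encode vesicle and growth cone proteins. The mean share of the CpG deciles of the 16 presynaptic genes was 51.6%.

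Other muscle genes give a scale for the 10, beside the 45.6% of all genes with a promoter peak. Of 30 sarcomere genes, 6 had a promoter peak (20.0%, interval 9.51 to 37.3%), the strongest at Myl4 (fold 12.1) and Tpm1 (8.09), and the mean share of their deciles was 26.8%. Of 20 genes of myoblast fusion, 8 had one (40.0%, interval 21.9 to 61.3%), the strongest at Itgb1 (9.10), Kirrel and Myof (both 7.80). The mean share of the deciles of the fusion genes was 54.2%. The intervals of these lists overlap that of the 10 genes, as a description and not a test.

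**Figure D4:**
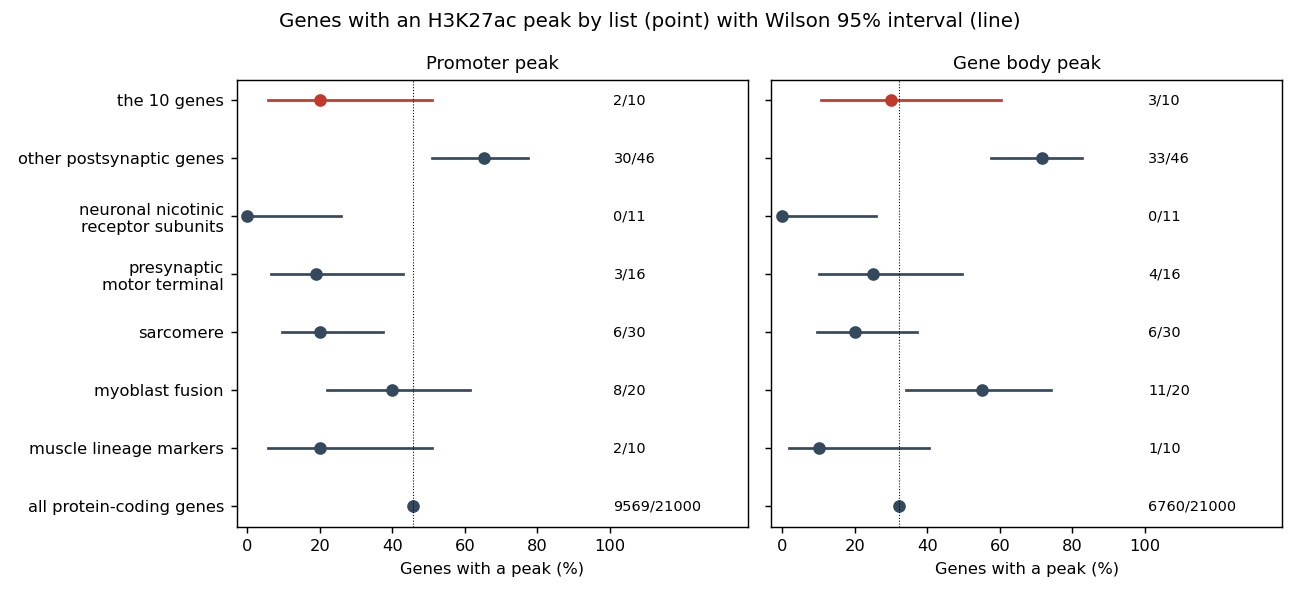
Share of genes with a promoter peak (left) or a gene body peak (right) in the 10 genes and in related lists, on an x axis in %, with Wilson 95% intervals as lines and the counts beside them, 1 library. The 10 genes stand at 20.0% for promoters, near sarcomere genes (20.0%) and the presynaptic list (18.8%). The list labeled other postsynaptic genes, which is broad, stands at 65.2%. The dotted line marks all protein-coding genes.

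The label of the tumor as myogenic was set beside cell type markers. The paper describes MCP tumors as varied, with focal staining for the MYOD1 and MYOGENIN proteins. The labels do not name the tumor behind this library, so it cannot be placed among them. Of 10 markers of the muscle lineage, 2 had a promoter peak, Pax3 (fold 18.1), which carries the P3F allele, and Myf6 (5.97), the source of the Cre driver. Myf5 had 15 peaks in its flanks and none at its promoter. Myf6, on chromosome 10 like Myf5, had 13 flank peaks, and how many count for both genes was not determined. Flank peaks were also called for Fgfr4 (8), Des (7), Pax3 (3), Cdh15 (1) and Myh3 (1). No peak was called within 20 kb of Myod1, Myog or Pax7, and the summit nearest to the Myod1 start lay 26.0 kb away. Among markers of other cells, promoter peaks were called at 0 of 10 endothelial, 0 of 6 neuronal and 1 of 6 leukocyte genes (Cd68, fold 5.91). Over all genes the share was 45.6%. The mean shares of the CpG deciles were 45.2% for the muscle lineage list, 36.6% endothelial, 49.5% neuronal and 15.8% leukocyte. Body peaks were called in 1 of 10 muscle lineage, 4 of 10 endothelial, 2 of 6 neuronal and 0 of 6 leukocyte genes. Over all genes 32.2% had a body peak. The part of other cell types in the values above was not tested, and in a bulk library fewer cells of a type and less mark per cell cannot be told apart.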

How the data were processed

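CUT&RUN for H3K27ac was analyzed in 1 MCP library. The authors' methods name bowtie, the mouse genome mm10, removal of problematic regions and of an amplified region near Col19a1, and MACS1.4 with the IgG library as background, whereas the processing notes in the labels name BWA, SAMtools and MACS2 with mm10 and dm6, and the deposited list is named for MACS2. Which tools made the list is therefore not settled here. For each peak the deposited list holds a score (10 times the -log10 q, whole part), the fold enrichment ratio at the summit, and the -log10 p and -log10 q, all as the authors' caller wrote them. They were used to describe and filter peaks, not as tests between conditions. No column of any other sample was used (0).

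Fragments over the summit and the local background were solved from fold and p with a scale of 0.885 between the libraries. A whole number met the -log10 p within 0.00500 in 122374 peaks, 1 was not solved, and 98.5% had 1 solution. At a scale 3% higher, 0.600% of 4000 peaks were solved. Of the peak numbers in the list 584 were absent, 0 of them in the windows used. Peaks were assigned to promoters, bodies and flanks by an overlap of at least 1 bp with curated RefSeq transcripts (GRCm38.p6, 31601 start sites), in Python 3.11.15 with pandas 2.3.3 and scipy 1.17.1. Shares carry Wilson 95% intervals, which treat genes or peaks as independent draws and do not cover the spread between tumors. There was 1 library, so no test was run. The steps were tested on simulated data. The genes and lists were chosen with earlier results of these data known. Of each list at most 5 genes with the highest promoter fold were to be named. Peaks were named at promoters, as the 3 highest of a gene or as its only peaks, and others named were chosen after their values were seen. Alternatives varied the windows, start sites and peak threshold. A further marker list is not reported here.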

Additional observations from a re-analysis of the deposited data

How the results depend on the processing

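Of 33 values recomputed for the main results under alternatives, 22 stayed within the limits set for a change and 11 moved. The number of the 10 genes with a promoter peak was 2, 1 with a 1 kb window (Musk, with 43.5% of all genes), 4 with GENCODE start sites (Chrne, Agrn, Musk and Dok7, with 46.7%) and 0 among the strongest 25% of the peaks (with 29.3%). With GENCODE starts the peaks in Chrne and Dok7 count as promoter peaks, and Musk is then the 1 gene with a body peak (with 29.5% of all genes). The number of peaks was 69, 42 with a 10 kb flank, 139 with a 50 kb flank, 22 when peaks went to the nearest start, 38 at a -log10 q of at least 5 and 22 among the strongest 25%. Among these the share at promoters fell from 4.35% to 0%. Median fold rose from 5.35 to 6.52 at a -log10 q of at least 5 and to 7.71 in the strongest 25%, as a stricter threshold by itself does. With a 10 kb flank Lrp4 had 0 peaks. The use of all RefSeq transcripts, predicted ones included, was chosen after seeing the data and left the counts at 2 genes with a promoter peak, 3 with a body peak and 69 peaks.

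The number of peaks of single genes moved by over 1.5 times in 21 of 30 recomputed values. A median of 13 fragments limits what can be said of a single peak, and 1 library gives no spread between tumors. No paired analysis was possible because the list holds 1 library and the result comes from no test.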
